A study of Mus musculus with 4 samples.

Results

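The genes described here are the subunit genes of the respiratory chain, complexes I to IV, together with the 2 subunits of ATP synthase (complex V) that mitochondrial DNA encodes. They were taken by name alone: every protein-coding row of both deposited tables whose symbol is that of a mitochondrially encoded subunit, or of a nuclear Nduf, Sdh, Uqcr or Cox4 to Cox8 subunit gene. No measured value chose them. The rule gave 79 of the 22046 protein-coding genes, 13 encoded by mitochondrial DNA and 66 by the nucleus. Of the nuclear genes, 36 belonged by name to complex I, 4 to complex II, 8 to complex III and 18 to complex IV. Ndufa4, which is now regarded as a subunit of complex IV, was counted with complex I by its symbol.

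The respiratory chain sits in the inner mitochondrial membrane. Complex I (NADH dehydrogenase) and complex II (succinate dehydrogenase, which also belongs to the citric acid cycle) pass electrons to ubiquinone. Complex III passes them on to cytochrome c and complex IV (cytochrome c oxidase) to oxygen, and complexes I, III and IV pump protons that drive ATP synthase. Subunits of complexes I, III, IV and V come from both genomes, whereas all 4 subunits of complex II are nuclear, and microglia can shift between oxidative phosphorylation and glycolysis with their state of activation.

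RNA was sequenced from primary microglia, prepared from male pups of the CD1 mouse strain, grown out of mixed glia, stripped of astrocytes with trypsin and kept in serum-free medium with IL-34, TGFβ2, GM-CSF and cholesterol. One group was exposed for 24 h to 1 µM EGCG, epigallocatechin gallate, a flavan-3-ol of green tea, and the other to the DMSO vehicle, with 2 biological replicates each (Vehicle 1, EGCG 1, Vehicle 2 and EGCG 2 below). Libraries were made from poly-A RNA, and each replicate number was deposited as its own table.

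Total counts were 33805071 in Vehicle 1, 34300679 in EGCG 1, 36307930 in Vehicle 2 and 54970300 in EGCG 2, so that 3 counts, taken as the smallest level the depth can show, stood for 0.0544 to 0.0936 CPM (counts relative to the TMM-scaled total of a library). The microglia markers Aif1, Csf1r and C1qa were detected in each library, at 68.1 to 215, 1195 to 2403 and 1443 to 3155 CPM, and 7 astrocyte markers summed to 13.8 to 19.4 CPM. All 9 microglia markers summed to 5739 CPM in Vehicle 1, 6346 CPM in EGCG 1, 8182 CPM in Vehicle 2 and 8030 CPM in EGCG 2. Without overlap, 5 of the 9 were higher in replicate 2 and 4 lower, beside 39.2% and 37.4% of all genes tested. The libraries of replicate 2 stood apart from those of replicate 1: across the 13811 genes tested, the vehicle difference between the replicates correlated with the EGCG difference (Pearson r = 0.64 across genes, which share these 4 libraries). The 6 fibroblast markers summed to 421 CPM in Vehicle 1, 4.87 CPM in EGCG 1, 157 CPM in Vehicle 2 and 174 CPM in EGCG 2, and Col1a1 had 3962, 4, 1344 and 2040 counts in that order. Of the 6 markers 5 were lower in EGCG 1 than in Vehicle 1, Lum at 0 counts. The astrocyte sum rested mainly on Aldh1l1, with 330 to 506 counts in a library, and 5 of the 6 astrocyte markers tested were also lower in EGCG 1 than in Vehicle 1. Gja1 had 160, 1, 66 and 107 counts and Aqp4 20, 0, 5 and 12 in the same order. The libraries of replicate 1 therefore also differed in markers of the fibroblast and astrocyte lists. The part of the markers of these cell types and of microglia in the differences below was not tested. In bulk RNA, fewer cells of a type and less RNA per cell cannot be told apart.

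The 13 mitochondrially encoded subunits spanned more than 3 orders of magnitude in level, and 6 of them held nearly all the counts. mt-Co1, the catalytic core of complex IV, was measured at 4652 CPM in Vehicle 1, 4572 CPM in EGCG 1, 4231 CPM in Vehicle 2 and 4358 CPM in EGCG 2, which was 54.2% to 58.8% of the counts on mitochondrial members. mt-Nd1, mt-Nd5, mt-Nd2 and mt-Nd4, membrane subunits of complex I, ranged over the libraries from 845 to 929, 878 to 1022, 394 to 493 and 312 to 416 CPM. mt-Cytb, the cytochrome b of complex III, ranged from 666 to 800 CPM. Together with mt-Co1 these 6 genes took 99.2% to 99.3% of the mitochondrial members' counts. Per kilobase of the gene length listed with the counts, their mean levels ran from 267 (mt-Nd4) to 2882 CPM per kb (mt-Co1).

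The remaining mitochondrial subunits were far lower, although they are read from the same genome. mt-Co2, which holds the copper centre where complex IV takes up electrons from cytochrome c, reached only 21.1 to 26.3 CPM. mt-Co3, the other core subunit of complex IV, ranged from 10.6 to 12.9 CPM, and mt-Atp6, part of the proton channel of ATP synthase, from 5.55 to 7.90 CPM. mt-Nd6, the only member on the minus strand of the genome, ranged from 9.93 to 19.0 CPM. The short genes mt-Nd3, mt-Nd4l and mt-Atp8 had 12 to 38, 17 to 45 and 7 to 17 counts in a library. These levels were orders of magnitude under that of mt-Co1.

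The sequences of the members were compared with those of other genes. For each member, the share of all 150-base windows of its longest principal transcript that occur letter for letter in a transcript of another gene (GENCODE release M21) was computed, since reads of that length from such a window can be placed at either gene. The share was 99.4% for mt-Co2 and mt-Atp6, 99.8% for mt-Co3, 97.0% for mt-Nd3 and 98.0% for mt-Nd4l, and these 5 genes had mean levels between 1.69 and 36.0 CPM per kb. It was 59.2% for mt-Nd4, 23.6% for mt-Co1 and 0 for mt-Nd1, mt-Nd2, mt-Nd5, mt-Nd6, mt-Cytb and mt-Atp8. All 7 members with a copy have it on the minus strand of chromosome 1, in the files' build GRCm38.p6, between 24611535 and 24616197, where unprocessed pseudogenes lie in the same order as the mitochondrial genes. The identity is shown by the first 60 bases of mt-Co2 (MT:7013-7072) and of its copy Gm28661 (chr1:24615506-24615565, minus strand), and by those of mt-Co3 (MT:8607-8666) and Gm28437 (chr1:24613912-24613971, minus strand), with 0 of 60 bases differing in each pair.

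mt-Co2: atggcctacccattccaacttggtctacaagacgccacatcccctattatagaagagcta

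Gm28661: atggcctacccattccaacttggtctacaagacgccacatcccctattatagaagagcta

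mt-Co3: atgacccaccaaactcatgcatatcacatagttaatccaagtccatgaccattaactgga

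Gm28437: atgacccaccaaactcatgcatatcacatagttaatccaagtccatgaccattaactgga

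A copy that is not exact shows the contrast. Over 1545 bases, mt-Co1 and the chromosome 2 pseudogene Gm13340 differ at 37 positions. The stretch of 60 bases printed here (MT:5787-5846, and chr2:22589129-22589188 on the minus strand) holds 4 of them, in capitals.

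mt-Co1: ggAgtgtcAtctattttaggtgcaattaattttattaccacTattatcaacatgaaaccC

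Gm13340: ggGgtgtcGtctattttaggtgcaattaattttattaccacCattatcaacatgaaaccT

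Counts were also assigned to the copies. Gm28661 had 361 counts in Vehicle 1, 530 in EGCG 1, 329 in Vehicle 2 and 564 in EGCG 2, beside 692, 819, 933 and 1449 counts on mt-Co2. Gm10925, the copy of mt-Atp6, had 410, 478, 240 and 478 counts, beside 182, 253, 222 and 353 on mt-Atp6 itself, so that in each library more counts were listed at the copy than at the mitochondrial gene. Summed over the chromosome 1 copies, counts were 1496, 1835, 988 and 1832. A window shared by a member and its copy cannot be assigned to either by its sequence alone. How the counting treated reads that match several places is not given in the sources used here. The part of the copies in the low levels was not tested, and mt-Nd6 was low with a share of 0. The share counts annotated transcripts only. mt-Atp8 lies between mt-Co2 and mt-Atp6, and its place in the chromosome 1 block, chr1:24614609-24614812, is overlapped by Gm10925 alone, so its share of 0 does not say whether the genome holds a copy there. mt-Atp8 also shares 43 bases with mt-Atp6 on the same strand, and mt-Nd5 overlaps mt-Nd6 by 14 bases on opposite strands.

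**Figure D1:**
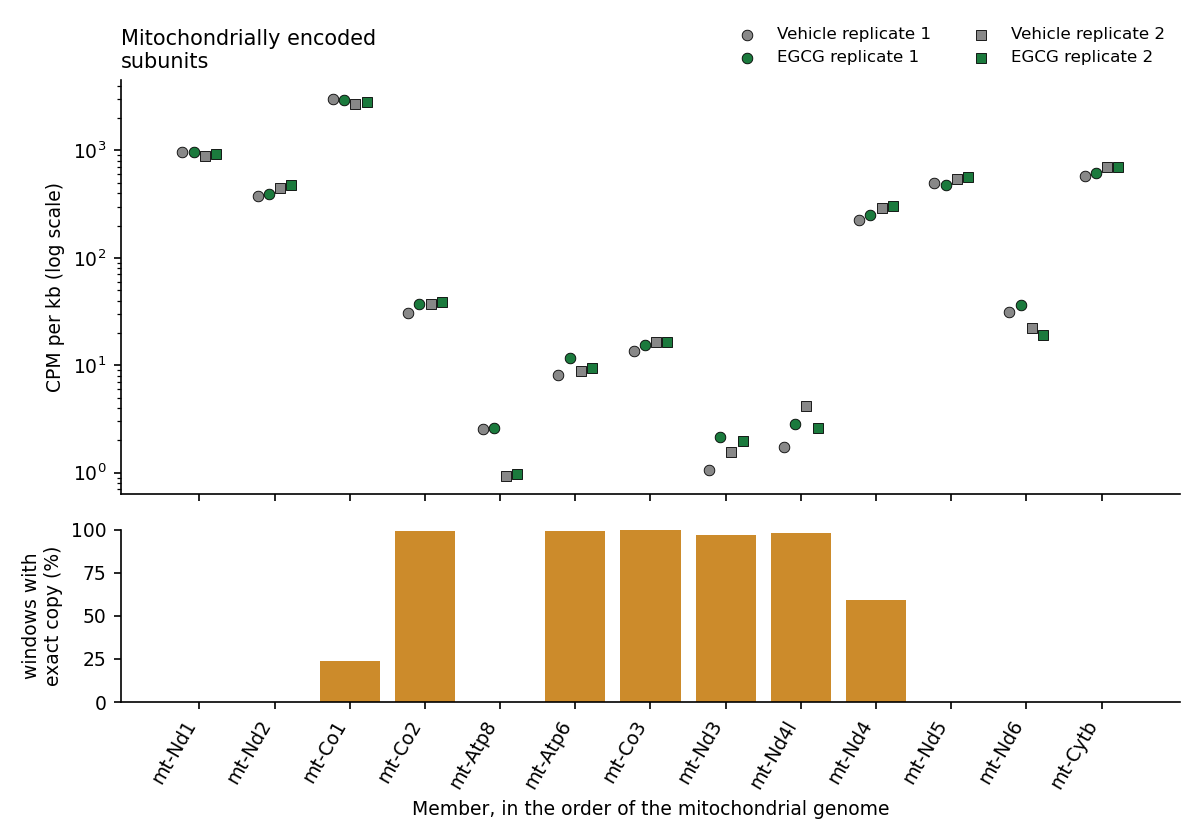
Upper panel, level of each mitochondrially encoded subunit in CPM per kb on a log axis, with 1 point for each of the 4 libraries (grey, vehicle; green, EGCG; circles, replicate 1; squares, replicate 2). Lower panel, percentage of 150-base windows with an exact copy in another annotated transcript. The 5 members over 90% have mean levels of 1.69 to 36.0 CPM per kb, whereas mt-Nd1, mt-Nd2, mt-Co1, mt-Nd4, mt-Nd5 and mt-Cytb lie between 267 and 2882. With a share of 0, mt-Nd6 and mt-Atp8 are also low, at 27.3 and 1.76 CPM per kb.

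Among the nuclear subunits, complex III was the most even and complex IV the most uneven per kilobase of listed gene length. Mean levels over the 4 libraries had a median of 25.6 CPM per kb in the 36 complex I genes, 55.0 in the 4 complex II genes, 50.8 in the 8 complex III genes and 64.8 in the 15 complex IV genes with enough counts to be tested. All 8 complex III genes lay within a factor of 2 of their median, from Uqcrc1, a core protein, at 31.3 to Uqcr10, a small accessory subunit, at 88.3 CPM per kb. In complex II the membrane anchors were at the ends, with Sdhc at 24.1 and Sdhd at 99.7 CPM per kb, and the iron-sulfur subunit Sdhb stood at 56.3. By listed gene length, the highest complex I genes were the small accessory subunits Ndufa1 and Ndufa2, at 78.7 and 72.7 CPM per kb. The listed length can exceed that of the transcript, with 1701 against 528 bases in Ndufa7 and 1801 against 590 in Ndufa6. In Ndufa1 both were 419 bases. The order of genes therefore depends on the length used. Ndufa1 was above Ndufa2 in Vehicle 1, EGCG 1 and EGCG 2 and below it in Vehicle 2, so the order of the 2 genes did not hold in all libraries. Ndufb2 was lowest at 0.683 CPM per kb, over a listed gene length of 5628 bases. It overlaps Braf on the other strand and Gm42420, at a mean of 0 CPM, on the same strand.

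In complex IV the ubiquitous forms were high and the tissue-restricted paralogs far lower, some of them near or at the floor. Cox8a and Cox4i1, at 261 and 250 CPM per kb, were the 2 highest nuclear members. Cox4i1 was measured at 407 CPM in Vehicle 1, 432 CPM in EGCG 1, 353 CPM in Vehicle 2 and 355 CPM in EGCG 2. Its paralog Cox4i2, known from lung and from hypoxia, had 1, 13, 10 and 22 counts in the same libraries, where Vehicle 1 is under the floor of 3 counts. The muscle form Cox6a2 ranged from 2.34 to 2.89 CPM against 112 to 156 CPM for Cox6a1, and overlaps Itgad on the opposite strand. The muscle form Cox7a1 had 34, 32, 8 and 29 counts, whereas Cox7a2 ranged from 49.3 to 76.9 CPM. The testis form Cox6b2 had 2 to 9 counts against 97.2 to 136 CPM for Cox6b1. Cox7b2, Cox8b and Cox8c, forms of testis or muscle, had 0 counts in all 4 libraries, which allows at most 0.0544 to 0.0936 CPM in a library, whereas Cox7b ranged from 61.0 to 107 CPM and Cox8a from 108 to 182 CPM. In each of the 4 libraries each restricted form was below its common form.

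**Figure D2:**
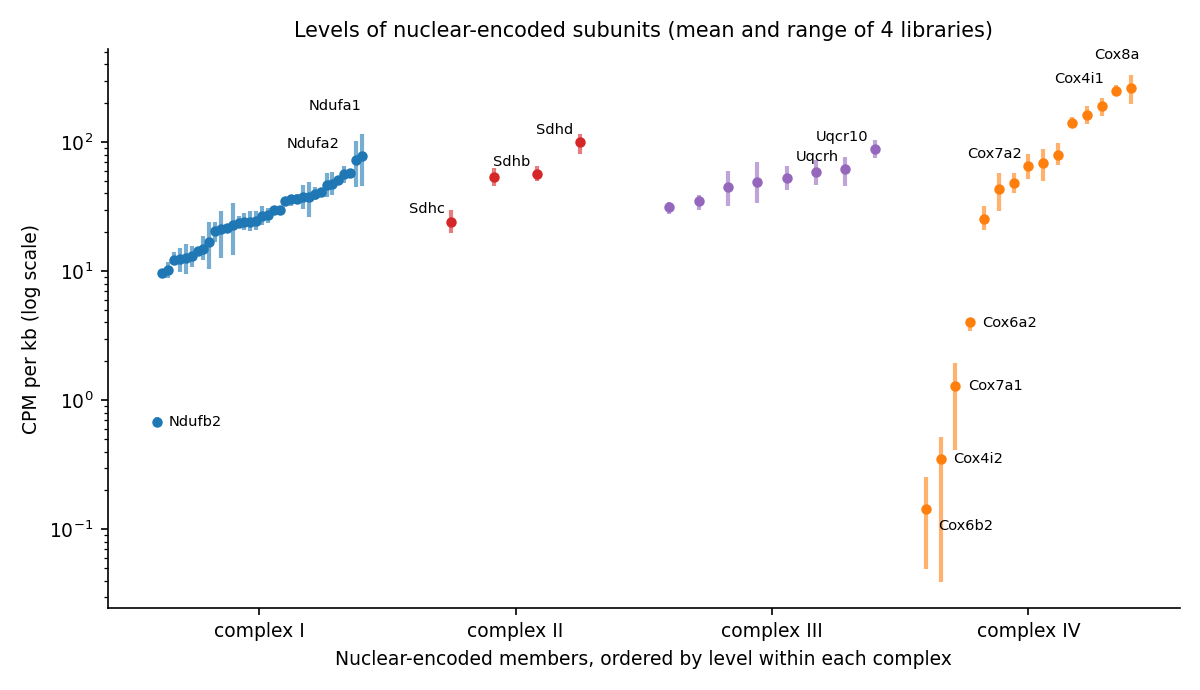
Level of each nuclear-encoded subunit with at least 10 counts over the libraries, in CPM per kb on a log axis; points are means and bars the range of the 4 libraries, with members ordered by level within each complex. Complex III spans 31.3 to 88.3, whereas complex IV runs from 0.144 (Cox6b2) to 261 (Cox8a).

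The study's comparison asked how EGCG changes microglial transcription. With treatment as the only term in edgeR's quasi-likelihood test, 0 of the 76 members tested had an unadjusted p under 0.05, beside 0.116% of all genes tested, and 0 had an adjusted p under 0.1. Of all 13811 genes tested, 0 had an adjusted p under 0.1 in that fit. DESeq2 gave the same 2 counts of 0 for the members with and without a block for the replicate number. In those 2 DESeq2 fits 153 and 24 of all genes tested had an unadjusted p under 0.05. The smallest unadjusted p of a member in edgeR's model was 0.189, for Ndufs7. The log2 fold changes were nevertheless mostly above 0: 67 of 76 members, with a median of 0.07, beside 54.2% and 0.01 for all genes tested. By class the medians were 0.06 for the mitochondrial members, and 0.07, 0.11, 0.08 and 0.07 for the nuclear members of complexes I, II, III and IV. Without EGCG 1 the 4 nuclear medians were -0.09, -0.12, -0.23 and -0.18 and without Vehicle 2 they were -0.01, -0.06, -0.15 and -0.12, whereas without Vehicle 1 or EGCG 2 they lay between 0.14 and 0.36. An exact two-sided permutation test of 2 libraries against 2 reaches no p below 0.33, so the p-values rest on the model.

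In the nuclear members the values above 0 came mainly from replicate 1. In replicate 1 the EGCG library was above the vehicle library in 59 of 63 nuclear members, beside 58.5% of all genes tested, with a median log2 difference of 0.13 against 0.03. In replicate 2 it was above in 33 of 63, beside 50.6% of all genes, with a median of 0.0013 against 0.0018. By complex, 34 of 36, 4 of 4, 8 of 8 and 13 of 15 nuclear members of complexes I, II, III and IV were higher in replicate 1, and 16, 2, 5 and 10 in replicate 2. Under the other scalings of library size the median in replicate 1 was 0.07 to 0.13 with 53 to 59 of 63 members higher, while all genes went from -0.02 to 0.03, and in replicate 2 scaling by total counts turned the nuclear median to -0.01. Of the mitochondrial members, 10 of 13 were higher in replicate 1 and 10 of 13 in replicate 2, with medians of 0.14 and 0.05, and 8 and 9 of 13 were higher when libraries were scaled by total counts. In both replicates at once, EGCG was above vehicle in 39 of 76 members, 32 nuclear and 7 mitochondrial, beside 4135 of 13811 genes. No test is possible with 1 library against 1, and the vehicle library of replicate 1 is the one with the fibroblast markers at 421 CPM.

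**Figure D3:**
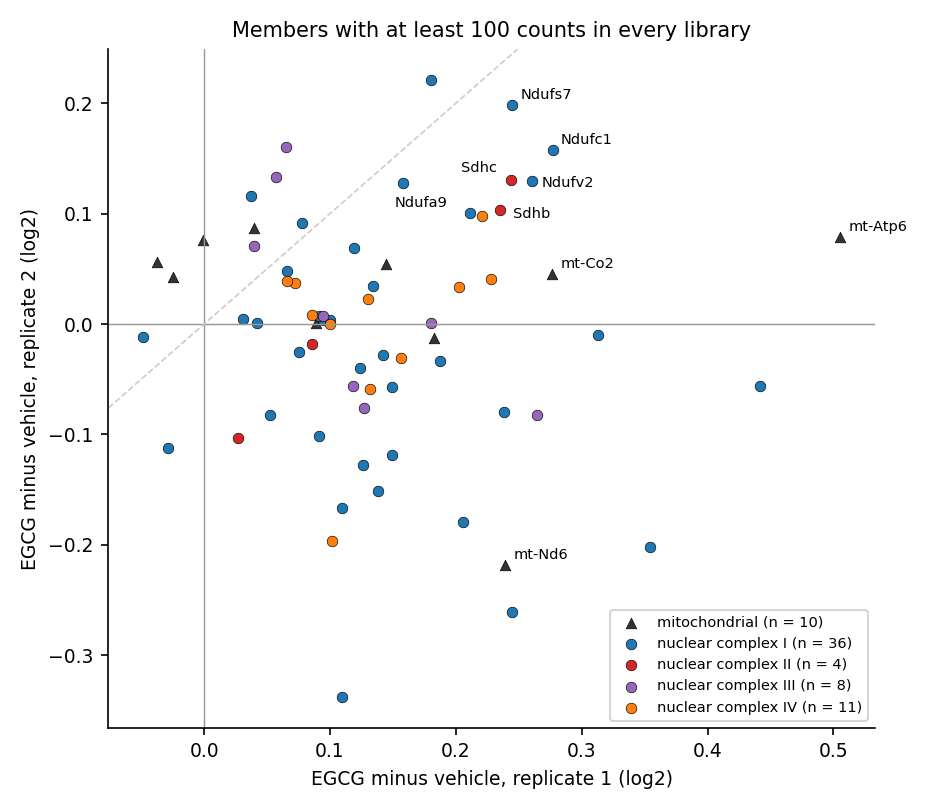
Log2 difference of EGCG minus vehicle within replicate 1 (horizontal) and replicate 2 (vertical) for the 69 members with at least 100 counts in every library, by class; the dashed line marks equal differences. Nuclear points lie between -0.05 and 0.44 on the horizontal axis and between -0.34 and 0.22 on the vertical axis, and the labelled complex I and II genes are those with an unadjusted p under 0.05 once the replicate number was a block.

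Once edgeR's model held a block for the replicate number, 6 members had an unadjusted p under 0.05 and all 6 were higher with EGCG, beside 2.12% of all genes tested for higher and 1.09% for lower. None passed adjustment (adjusted p = 0.995 for each of the 6 in edgeR's quasi-likelihood test), beside 1 of all 13811 genes tested. In DESeq2 with the same block the unadjusted p of these 6 members ranged from 0.0797 to 0.226. Of the 6 genes, 4 are among the 36 nuclear members of complex I and 2 among the 4 of complex II.

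Ndufs7 (chr10:80249121-80256794, plus strand), which holds the last iron-sulfur cluster before ubiquinone in complex I, was measured at 44.7 CPM in Vehicle 1, 53.0 CPM in EGCG 1, 40.9 CPM in Vehicle 2 and 47.0 CPM in EGCG 2. Both EGCG libraries were above both vehicle libraries, with a log2 fold change of 0.22 ± 0.06 (SE, blocked edgeR fit, unadjusted p = 0.0115), whose SE was 0.14 without the block. Sdhb (chr4:140961203-140979193, plus strand), the iron-sulfur subunit of complex II, had 125, 147, 113 and 121 CPM in the same order. The log2 difference of EGCG minus vehicle was 0.24 within replicate 1 and 0.10 within replicate 2, and the groups overlapped because EGCG 2 lay under Vehicle 1. Sdhc (chr1:171127165-171150603, minus strand), a membrane anchor of complex II, had 81.5, 96.6, 64.8 and 70.9 CPM, with the same overlap. The within-replicate log2 differences of Sdhc were 0.24 and 0.13.

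Ndufv2 (chr17:66078638-66101559, minus strand), an iron-sulfur subunit of the NADH-oxidising arm of complex I, had 52.1, 62.4, 44.2 and 48.3 CPM. Ndufc1 (chr3:51404677-51408988, minus strand), a small accessory subunit, had 22.9, 27.8, 18.1 and 20.2 CPM, and the largest log2 fold change of complex I without the block, 0.23 ± 0.24 (SE). Ndufa9 (chr6:126821721-126849136, minus strand), an accessory subunit near the ubiquinone site, had 84.5, 97.9, 64.1 and 68.7 CPM. In these 3 genes too each EGCG library was above the vehicle library of its own number, but EGCG 2 was below Vehicle 1. Log2 fold changes in the blocked fit of all 6 genes ran from 0.16 to 0.22 with SEs of 0.06 to 0.07.

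Without regard to the replicate number, both EGCG libraries lay above both vehicle libraries in 8 of 76 members, beside 6.39% of all genes tested, and below in 0, beside 5.51%. Of these 8, mt-Atp6, mt-Co2 and mt-Nd3 are mitochondrial genes with exact copies on chromosome 1, and Cox4i2 and mt-Nd3 had at most 22 and 38 counts in a library. The other 4 were Ndufs7, Ndufa10, Ndufa11 and Ndufb2 of complex I. mt-Atp6 had 5.55, 7.90, 6.06 and 6.40 CPM, a log2 difference of 0.51 in replicate 1 and 0.08 in replicate 2. mt-Co2 had 21.1, 25.6, 25.5 and 26.3 CPM, so that EGCG 1 exceeded Vehicle 2 only narrowly.

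The 6 abundant mitochondrial genes did not pass the test in any fit. Log2 fold changes in edgeR without the block were 0.01 ± 0.22 for mt-Co1, 0.04 ± 0.17 for mt-Nd1, 0.01 ± 0.19 for mt-Nd5, 0.04 ± 0.19 for mt-Cytb, 0.07 ± 0.20 for mt-Nd2 and 0.09 ± 0.21 for mt-Nd4 (SE, 2 libraries a group), and those of mt-Co1 and mt-Nd5 were -0.02 when libraries were scaled by total counts. mt-Nd6 differed by 0.24 in replicate 1 and by -0.22 in replicate 2. mt-Nd4l likewise differed in sign, at 0.65 and -0.62 with 17 to 45 counts in a library.

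The nuclear members with the largest log2 fold changes in complexes III and IV, among those with at least 10 counts in every library, were also within their errors. These were Uqcr11 in complex III, a small accessory subunit, at 0.14 ± 0.46 and Cox7a2 in complex IV at 0.17 ± 0.27. Higher values in complex IV rested on few counts, with Cox4i2 at 1.37 ± 1.10 (1 to 22 counts in a library), Cox6b2 at 0.44 ± 1.12 (2 to 9) and Cox7a1 at 0.28 ± 0.95 (8 to 34), and none of the 3 passed the test. The lowest values were Ndufv3 at -0.07 ± 0.14 in complex I, Sdhd at -0.03 ± 0.26, Uqcr10 at 0.04 ± 0.23 and Cox6a2 at -0.13 ± 0.32 (SE, edgeR without the block). All 8 complex III genes thus had values above 0, with 0 passing in any fit.

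Genes that serve the chain without being subunits of complexes I to IV were measured as well. The nuclear genes of ATP synthase and its inhibitor (19 symbols on 20 rows, 19 tested) had a median log2 fold change of 0.08, and 19 of 19 were higher in replicate 1 but 9 of 19 in replicate 2. Atp5c1, Atp5g1 and Atp5g3, encoding a stalk subunit and membrane-ring subunits, had unadjusted p of 0.0296, 0.0411 and 0.0192 in the blocked edgeR fit, and none of the list passed without the block or after adjustment. For the counts that follow, 58.5% and 50.6% of all genes tested were higher in replicates 1 and 2, and 2.12% passed as higher at an unadjusted p under 0.05 with the block. Of 41 assembly factors, 30 were higher in replicate 1 and 19 in replicate 2, with a median of 0.05, and 1 (Sco2, a copper chaperone of complex IV) passed at an unadjusted p under 0.05 with the block. Of 13 tested genes of mitochondrial gene expression and biogenesis, such as Tfam, Polrmt and Nrf1, 5 were higher in replicate 1 and 7 in replicate 2, with a median of -0.02, and 0 passed with or without the block. Cycs, cytochrome c, had 68.8, 75.2, 45.5 and 47.1 CPM.

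Promoters were searched for 3 motifs of factors known for nuclear respiratory genes, in windows from 250 bases before to 50 bases after the start (RefSeq, GRCm38.p6), on both strands. Of 66 nuclear members 53 had a window. GCATGCGC, for NRF1, was in 7 of them (13.2%), beside 5.70% of the tested genes with a window and 3.05% of all windows. AAGATGGC, for YY1, was in 7 (13.2%), beside 4.94% and 3.19%, and CCGGAAGT, for GABPA, in 4 (7.55%), beside 8.58% and 4.31%. The palindromic core of the NRF1 motif lets both strands match at overlapping places. Among the 6 genes above, Sdhb holds the NRF1 letters and Ndufs7, Ndufc1 and Ndufa9 the YY1 letters. The 2 windows printed, with the match in capitals, are those of Sdhb (chr4:140961021-140961320, plus strand, match starting 54 bases before the start) and Ndufs7 (chr10:80249199-80249498, plus strand, match 25 bases after it), the genes with the smallest DESeq2 and edgeR p in the blocked fits. A match is a run of letters and not a measured site.

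Sdhb: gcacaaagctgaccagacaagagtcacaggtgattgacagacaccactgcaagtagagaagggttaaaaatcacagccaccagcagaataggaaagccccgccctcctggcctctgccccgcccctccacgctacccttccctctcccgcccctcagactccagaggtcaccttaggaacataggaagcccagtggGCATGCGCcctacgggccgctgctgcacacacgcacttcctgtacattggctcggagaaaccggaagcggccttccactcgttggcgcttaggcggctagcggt

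Ndufs7: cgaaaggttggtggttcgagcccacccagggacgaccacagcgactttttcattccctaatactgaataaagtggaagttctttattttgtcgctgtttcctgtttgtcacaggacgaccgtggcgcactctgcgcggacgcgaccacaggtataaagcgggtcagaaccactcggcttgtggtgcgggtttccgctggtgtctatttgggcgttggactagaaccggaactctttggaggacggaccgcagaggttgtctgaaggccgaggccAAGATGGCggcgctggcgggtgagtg

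The replicates differed more than the treatments, in the members as in all genes. The median absolute log2 difference over the members was 0.37 between replicates, against 0.13 and 0.07 between treatments in replicates 1 and 2. Over all genes tested the same values were 0.35, 0.12 and 0.10. Both libraries of replicate 2 were below both of replicate 1 in 49 of 63 nuclear members, beside 37.4% of all genes tested, and above in 4, beside 39.2%. This held for 24 of 36 in complex I, 4 of 4 in complex II, 8 of 8 in complex III and 13 of 15 in complex IV. The median log2 difference of replicate 2 minus replicate 1 was -0.39 in the nuclear members, with -0.20, -0.39, -0.58 and -0.45 in complexes I to IV, whereas it was 0.01 over all genes. Between the vehicle libraries it was -0.34, between those with EGCG it was -0.46, and it was -0.45 to -0.31 under the other scalings. No replicate number was repeated, so there is no test of this difference, and culture, table and sequencing cannot be told apart.

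Among members with at least 10 counts in every library, the nuclear genes with the largest replicate differences on the log2 scale were Ndufa1 at -1.29, Ndufb3 at -1.14 and Ndufa2 at -1.05, all short accessory subunits of complex I. Cox7a1 at -1.44 and Cox6b2 at -1.28 rested on fewer counts. Ndufa1 (chrX:37187588-37191163) was measured at 45.3 CPM in Vehicle 1 and 48.3 CPM in EGCG 1, against 19.1 CPM in both Vehicle 2 and EGCG 2. Ndufa2 had 53.4, 58.8, 28.4 and 25.6 CPM in Vehicle 1, EGCG 1, Vehicle 2 and EGCG 2. In complex III the difference was -0.87 for Uqcr11, -0.80 for Uqcrq and -0.62 for Uqcrh, the hinge protein, and in complex IV -0.84 for Cox5b, -0.76 for Cox7b and -0.65 for Cox8a. Uqcr11 had 37.1, 44.6, 22.9 and 21.7 CPM, and Uqcrh 90.2, 94.4, 56.7 and 63.4 CPM. Cox8a had 166, 182, 113 and 108 CPM. In each of these 5 genes with levels given, the replicates did not overlap and the treatments did. Uqcr10, another short subunit, differed less, with 55.6, 60.7, 46.2 and 43.8 CPM.

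**Figure D4:**
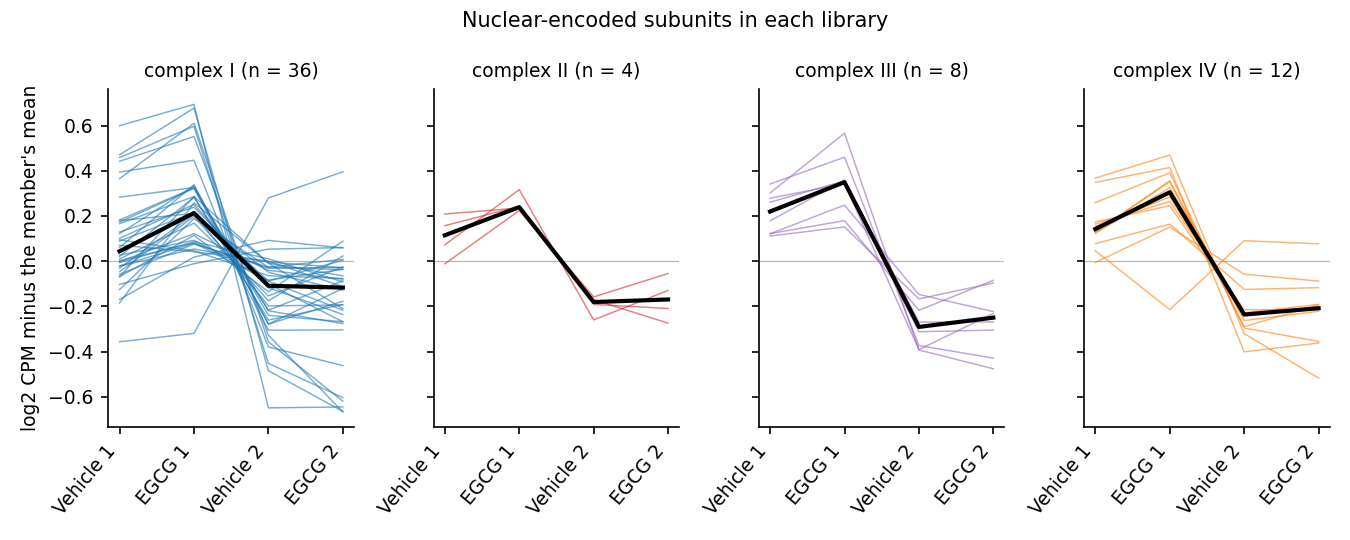
Log2 CPM of each nuclear-encoded subunit with at least 10 counts in every library, minus its own mean, in the 4 libraries; thin lines are genes, the black line is the median, and n is the number of genes. The medians step down between EGCG 1 and Vehicle 2 in all 4 panels, though single genes such as Ndufa12 and Ndufa7 step up, and the step is deepest in complex III, where the median difference between the replicates was -0.58.

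Transcript length moved with this difference. Over all genes tested the median difference was -0.40 for transcripts of up to 500 bases, -0.17 from there to 1000, -0.09 to 2000, 0.01 to 4000 and 0.10 above that. Among genes with at least 1000 counts in all it was -0.19, -0.13, -0.05, 0.06 and 0.14 in the same bins. The nuclear subunits are short, with 34 of 63 over 500 and up to 1000 bases long, and their medians in the first 4 bins were -1.08 (4 genes), -0.43 (34), -0.30 (20) and -0.39 (4), each below that of all genes of like length. Among 58 nuclear members with at least 1000 counts in all, the difference correlated with log2 length at Pearson r = 0.27 and Spearman rho = 0.29. Over the 9180 genes tested with that many counts, the same values were 0.14 and 0.20. Both describe genes that share the same 4 libraries. The part of length in the difference was not tested further.

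**Figure D5:**
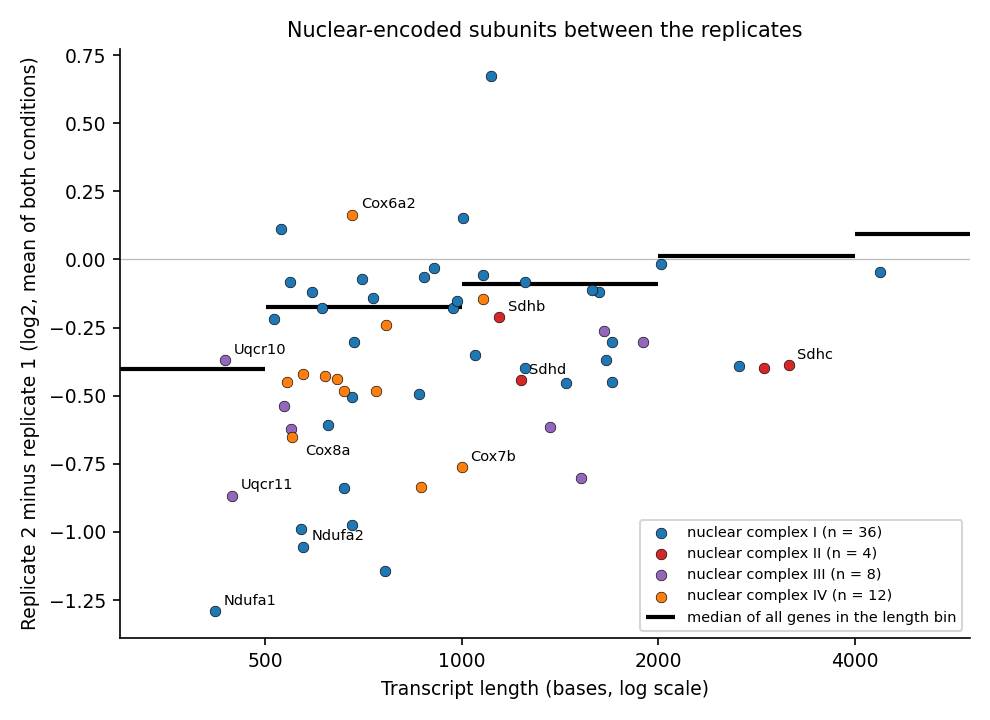
Log2 difference of replicate 2 minus replicate 1 (mean of both conditions) against transcript length in bases on a log axis, for the 60 nuclear members with at least 10 counts in every library. Black lines are the medians of all genes tested in each length bin, from -0.40 to 0.10, and most members lie below them, with Ndufa1 lowest at -1.29.

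The mitochondrial genes went in both directions between the replicates. The median log2 difference of replicate 2 minus replicate 1 was 0.17 over the 13 mitochondrial members (0.11 to 0.25 under the other scalings). Without overlap, 5 of them were above and 4 below, beside 39.2% and 37.4% of all genes tested. mt-Nd2, mt-Nd4, mt-Nd5, mt-Cytb and mt-Co3 were higher in replicate 2, whereas mt-Co1, mt-Nd1, mt-Nd6 and mt-Atp8 were lower. For mt-Co1 and mt-Nd1 the difference was -0.10 each, and for mt-Nd6 it was -0.71.

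As a share of all counts, the mitochondrial members took 0.768% in Vehicle 1, 0.738% in EGCG 1, 0.786% in Vehicle 2 and 0.807% in EGCG 2, and the nuclear members 0.436%, 0.457%, 0.365% and 0.364%. The ratio of mitochondrial to nuclear members, in summed CPM per kb, was 1.80, 1.65, 2.31 and 2.46 for complex I in the same order. For complex III it was 1.22, 1.19, 2.05 and 2.04, and for complex IV 2.07, 1.88, 2.46 and 2.54. In each complex the 2 libraries of replicate 2 were above those of replicate 1, and EGCG was below vehicle in replicate 1. In replicate 2 EGCG was above vehicle for complexes I and IV and level with it for complex III. With only mitochondrial members free of exact copies, the complex I ratio was 1.60, 1.45, 1.99 and 2.13, in the same order of libraries. With medians in place of sums the complex IV ratio was 0.577, 0.646, 1.01 and 1.09. EGCG was then above vehicle in replicate 1 too, whereas complexes I and III stayed below there. The median mitochondrial member of complex IV is mt-Co2, with exact copies of 99.4% of its windows. The nuclear median of complex IV includes Cox7b2, Cox8b and Cox8c, at 0 counts. The ratios compare poly-A RNA, since the libraries were selected for it. They also rest on the listed gene lengths, which in some nuclear members exceed that of the transcript.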

How the data were processed

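RNA from 2 EGCG and 2 vehicle cultures of mouse microglia was sequenced as directional poly-A libraries with paired-end reads of 150 bases. The authors filtered reads, aligned them with HISAT2 to GRCm38.p6 and deposited raw counts per gene in 1 table per replicate number; the counting program, its annotation and its treatment of reads that match several places are not given in the sources used here. Groups and replicate numbers were taken from the sample titles.

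Protein-coding genes found in both tables whose counts in the 4 libraries added up to 10 or more were kept (13811 of 22046), as a reading of the study's filter. Counts were scaled by TMM and tested in R 4.3.3 with edgeR 4.0.16 (quasi-likelihood F test, two-sided, treatment only, Benjamini-Hochberg over all genes tested), with DESeq2 1.42.0 and a replicate block as alternatives. Thresholds were an unadjusted p under 0.05 and an adjusted p under 0.1. A prior count of 2 was added for log2 values. CPM divides counts by the TMM-scaled library size, and levels between genes use the gene length listed in the tables. The SEs come from the fits and include variation between libraries, whereas nothing but counting error enters the floor of 3 counts. The replicate number was taken to mark a shared culture batch because each number was deposited as a table holding both conditions. The replicate difference in vehicle and that in EGCG correlated across genes at r = 0.64. The pairing was decided before the fits were compared.

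Genes named are the 13 mitochondrial members, the 2 highest per length, the highest and the lowest log2 fold change in each nuclear complex (at least 10 counts in every library), members with an unadjusted p under 0.05 with or without the block, and tissue-restricted paralogs with their common forms. Ndufa10, Ndufa11, Ndufb2, Uqcrc1, Atp5c1, Atp5g1, Atp5g3, Sco2, Cycs, Ndufb3, Uqcrq, Cox5b, Ndufa12 and Ndufa7 were named after their values were seen. The members and all gene lists were chosen with earlier results of these data known. Windows of 150 bases were compared exactly with GENCODE M21 transcripts, and 73 of 79 members had the same position there as in the tables. Simulated data served to try the fits, with 200 genes shifted by 1 log2 unit. At a simulated replicate SD of 0.3, edgeR without the block recovered 0% of them after adjustment, against 99.5% with the block. DESeq2 recovered 91% and 95% there. At an unadjusted p under 0.05, edgeR without the block found 99.5% of them and 0.323% of the unchanged genes. When replicates differ to that extent, a count of 0 after adjustment says little in edgeR without the block. The simulated replicate difference was the same in both conditions, as the block assumes, and the noise was equal for all genes. The simulated shift exceeded the 0.16 to 0.22 of the 6 members with an unadjusted p under 0.05 in the blocked edgeR fit. Recovery of changes of that size was not tried. Alternatives covered the test, scaling, filters, gene classes and leaving out each library.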

Additional observations from a re-analysis of the deposited data

How the results depend on the processing

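Under the replicate block in edgeR, 6 members had an unadjusted p under 0.05, all 6 higher with EGCG (0 without the block). All other fits, scalings, filters and left-out libraries gave 0 members in either direction, and 0 mitochondrial members or members at an adjusted p under 0.1 in any fit. The cause was not tested. The class medians moved by less than the spread between the replicates in all settings that kept 4 libraries. Leaving out 1 library, the median log2 fold change ran from -0.094 to 0.22 in complex I, -0.12 to 0.25 in II, -0.23 to 0.36 in III, -0.18 to 0.36 in IV, 0.011 to 0.17 in the mitochondrial members, -0.070 to 0.20 in ATP synthase and -0.028 to 0.070 in the assembly factors, below 0 without EGCG 1 or Vehicle 2 in all but the mitochondrial members; the lone library left in a group is assumed to vary like the other group. The difference EGCG minus vehicle in the ratio of mitochondrial to nuclear members ran from -0.40 to 0.41 (complex I), -0.45 to 0.41 (III) and -0.38 to 0.27 (IV). With medians in place of sums it was 0.27 in complex I, -0.21 in complex III and 0.077 in complex IV, against 0.01, -0.02 and -0.057. Complex IV thus turned in sign, where the mitochondrial median is mt-Co2, a member with an exact copy of nearly all its windows. For the mitochondrial share of counts it ran from -0.038 to 0.030 percentage points.

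Single genes whose log2 fold change reversed, all near 0 and none past a threshold, were Ndufa2 under the block (-0.0035 in edgeR, -0.012 in DESeq2) and by total counts (-0.00095). mt-Co1 was at -1.7e-06 in DESeq2, -9.2e-07 with its size factors, -0.014 with upper-quartile factors, -0.024 by total counts, -0.0040 with 10 counts in every library and -0.0094 with filterByExpr. mt-Nd5 was at -0.0067, -0.017 and -0.0028 with upper-quartile factors, total counts and filterByExpr. mt-Atp8 was at -0.043 with the newer dispersion method of edgeR, -0.0023 with upper-quartile factors and -0.014 by total counts. With 1 library left out, log2 fold changes ran over Cox4i1 -0.097 to 0.16, Cox6a1 -0.18 to 0.27, Cox6a2 -0.31 to 0.0081, Cox6b1 -0.20 to 0.26, Cox6b2 -0.54 to 1.67, Cox7a1 -0.47 to 1.78, Cox7a2 -0.13 to 0.39, Cox7b -0.38 to 0.48, Cox8a -0.36 to 0.36, Ndufa1 -0.75 to 0.82, Ndufa2 -0.68 to 0.57, Ndufa9 -0.11 to 0.38, Ndufc1 -0.022 to 0.41, Sdhc -0.045 to 0.37, Sdhd -0.31 to 0.17, Uqcr10 -0.22 to 0.22, Uqcr11 -0.47 to 0.54, Uqcrh -0.21 to 0.48, mt-Atp8 -0.82 to 0.90, mt-Co1 -0.076 to 0.078, mt-Co3 -0.055 to 0.21, mt-Cytb -0.084 to 0.16, mt-Nd1 -0.047 to 0.11, mt-Nd2 -0.11 to 0.20, mt-Nd4 -0.077 to 0.27, mt-Nd4l -0.60 to 0.63, mt-Nd5 -0.13 to 0.12, mt-Nd6 -0.48 to 0.43. With 7 to 45 counts in a library, mt-Atp8, mt-Nd3 and mt-Nd4l could not show differences of this size, and among the abundant members, such as mt-Co1 and Cox4i1, the spread between the replicates was the limit. The values within each replicate under other scalings and the limits to mitochondrial members without exact copies, or to nuclear members with at least 100 counts in every library, were chosen after seeing the data.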

Other observations

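Single markers of other cell types also varied between the libraries, while others of the same lists did not follow them. The 4 neuron markers, among them Snap25 and Tubb3, summed to 17.5 CPM in Vehicle 1, 16.7 CPM in EGCG 1, 0.791 CPM in Vehicle 2 and 1.14 CPM in EGCG 2. The 4 endothelial and pericyte markers summed to 4.42, 1.03, 19.6 and 17.2 CPM in the same order, and the 4 oligodendrocyte markers to between 76.8 and 79.4 CPM. Each of the first 2 sums rested mainly on 1 gene. Snap25 alone gave 17.2 of the 17.5 CPM in Vehicle 1, while Tubb3 had 5, 0, 4 and 15 counts. Pecam1 had 2, 3, 580 and 741 counts, while Cldn5 was at 0 in each library and Pdgfrb, at 142, 30, 139 and 209 counts, was lowest in EGCG 1, as the fibroblast sum was. Their part in the levels of the subunit genes was not tested.

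Several nuclear subunit genes have processed pseudogenes that took many counts. Gm6969, which holds exact copies of 6.90% of the 150-base windows of Cox7a2l, had 2887 counts in Vehicle 1, 2869 in EGCG 1, 2398 in Vehicle 2 and 3167 in EGCG 2, beside 5259, 5723, 5667 and 8351 on Cox7a2l. Gm15920, with 13.4% of the windows of Ndufa12, had 431, 478, 355 and 707 counts beside 492, 493, 854 and 1393. Ndufa12 was 1 of the 4 nuclear members that lay higher in both libraries of replicate 2. In all, 6 of 66 nuclear members had any such window, against 7 of 13 mitochondrial members.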
